A study of Mus musculus with 15 samples.

Results

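The nuclear genes that encode the subunits of the respiratory chain and of ATP synthase were examined in a mouse model of high-grade glioma treated with an antibody that blocks vascular endothelial growth factor A (VEGF-A). Members were taken by symbol from the protein-coding genes of the GENCODE annotation of mm10: the Ndufa, Ndufb, Ndufc, Ndufs and Ndufv genes of complex I, Sdha to Sdhd of complex II, the Uqcr genes and Cyc1 of complex III, the Cox4 to Cox8 subunit genes of complex IV and the Atp5 subunit genes of ATP synthase (complex V). This gave 86 gene IDs with 85 symbols, of 20572 genes with a value in at least 1 library: 38 in complex I, 4 in complex II, 9 in complex III, 18 in complex IV and 17 in complex V. Atp5o is listed under 2 overlapping gene IDs that cannot be separated, and Usmg5, another ATP synthase subunit, falls outside the symbols used.

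Complexes I and II pass electrons from NADH and succinate to ubiquinone, complex III passes them to cytochrome c, and complex IV passes them to oxygen. Complexes I, III and IV pump protons across the inner mitochondrial membrane, and ATP synthase uses the gradient to make ATP. A few catalytic subunits carry the redox centres, many small accessory subunits surround them, and the hydrophobic cores are encoded by mitochondrial DNA. Neurons depend strongly on this pathway, while many tumors combine it with high glycolysis.

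All animals were C57BL/6 mice, and each of 5 groups held 3 RNA-seq libraries. Untreated tumors were GL261 gliomas, a transplantable mouse glioma line, from animals given no antibody. Treated tumors were GL261 gliomas from animals given B20.4.1.1, a monoclonal antibody to VEGF-A, every 3 days from day 10 after implantation until the endpoint, with 50, 100 or 200 µg in each dose. Healthy brain tissue was the normal control. Tumors were taken after perfusion with saline and flash frozen. The labels call the 3 libraries of a group individual samples without tying each to an animal, so p-values measure only the spread between these samples. A tumor library holds cancer cells together with host cells, and in such bulk RNA fewer cells of a type and less RNA per cell cannot be told apart. The titles set the groups. The agent tag of replicate 3 names another dose than its title in 3 groups. It names 50 µg in the untreated group, 100 µg in the 50 µg group and 200 µg in the 100 µg group. It is missing in the 200 µg group.

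Values are FPKM, read fragments scaled by transcript length and by library size, summed over the assembled transcripts on a gene's exons and weighted by the share of exonic length each covers. A gene with long, rarely used exons therefore gets a low value, so levels of different genes are given only as a description, and comparisons are made within a gene across libraries. Read totals are not given in the sources used here. Coverage per FPKM, which grows with read length as well as depth, ran from 1 to 3.63 relative to the lowest library. It was highest in healthy brain replicate 3. Several libraries stood apart. The share of genes assembled as separate pieces was 5.46%, 5.98% and 5.75% in the 200 µg libraries and 4.95% in 100 µg replicate 3, against 12.7% to 28.8% in the other 8 tumor libraries. It was 9.15% in healthy brain replicate 3, against 38.0% and 23.1% in the other 2 healthy brain libraries. Neuron markers, 7 genes including Snap25 and Rbfox3, summed to 5.16 to 9.41 FPKM in untreated tumors and 980 to 1311 FPKM in healthy brain, and dividing-cell markers, 4 genes including Mki67, to 88.1 to 151 FPKM and 0 to 0.824 FPKM.

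Respiratory chain mRNAs are short, so their length is given beside the results that moved with it. The median mRNA of a member was 731 bases long, against 2714 for all genes, and 37.2% of members had an mRNA under 600 bases, against 1.72% of all genes. Spread between replicates also ran with length. The median within-group SD of log2 values was 0.520 for members and 0.314 for all genes, and within the members it was 0.721 under 600 bases, 0.580 from 600 to under 1000 bases and 0.277 at 1000 bases or more. For all genes it was 0.623, 0.437 and 0.296 in these classes, so members of 1000 bases or more varied slightly less than all genes of that length. Of the 86 members, 83 averaged 1 FPKM or more over all libraries. The others were Cox4i2, the low-oxygen and lung isoform of Cox4, and Cox7b2 and Cox8c, both known from testis. Cox7b2 and Cox8c were listed at 0 in every library. Values of 41 members are less certain, because 17 have near-identical copies elsewhere, 12 overlap another gene and 25 were assembled together with a neighbour in at least 1 library.

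Levels differed widely between the members of a complex, subject to that limit. The median of the member means was 39.7 FPKM in untreated tumors and 34.5 FPKM in healthy brain for complex I, 27.3 and 31.6 FPKM for complex II, 56.8 and 60.3 FPKM for complex III, 109 and 85.4 FPKM for complex IV and 61.7 and 64.5 FPKM for complex V. Among members that passed the filter, the highest means in healthy brain within complexes I to V belonged to Ndufc2, Sdha, Uqcr11, Cox6a1 and Atp5b, and the lowest to Ndufa4l2, Sdhc, Uqcrb, Cox6b2 and Atp5g1. Ndufc2, a small membrane subunit of complex I, averaged 133 ± 37.4 FPKM in untreated tumors and 120 ± 32.1 FPKM in healthy brain (SD, n = 3 each). Cox6a1, a subunit of complex IV, averaged 639 ± 35.0 FPKM in untreated tumors and 924 ± 268 FPKM in healthy brain (SD, n = 3 each).

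**Figure D1:**
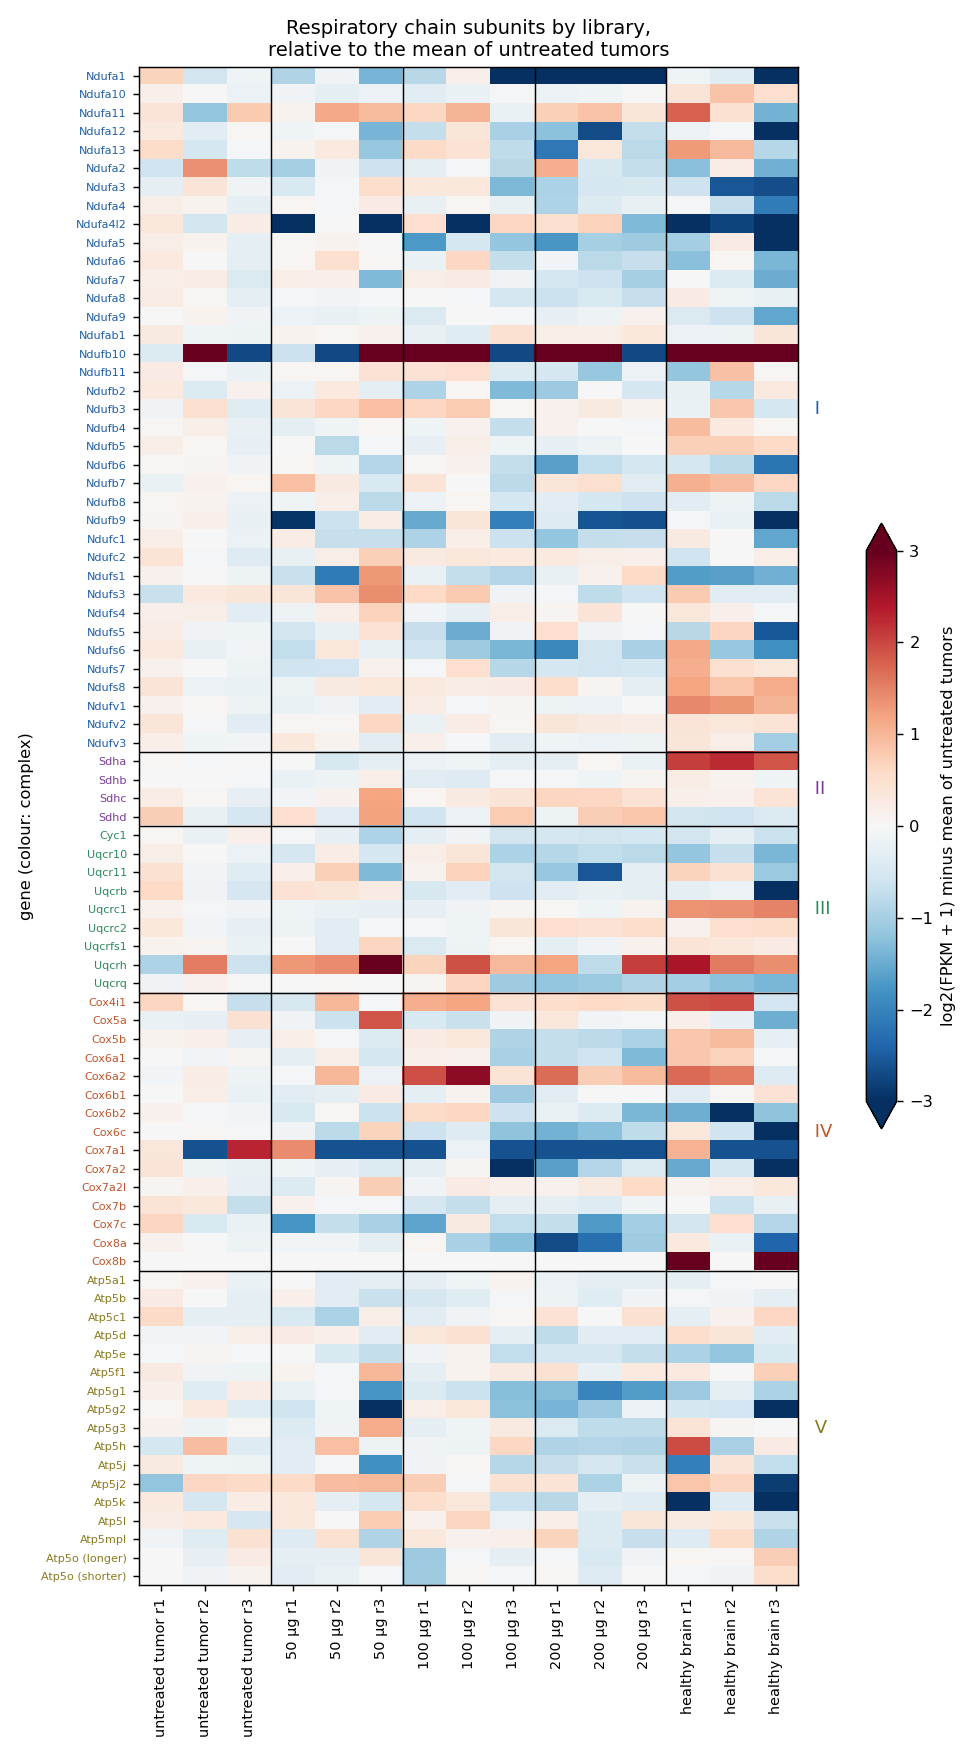
Log2(FPKM + 1) of 82 of the members that averaged 1 FPKM or more (rows, coloured and grouped by complex I to V), minus the mean of the 3 untreated tumors, in each of the 15 libraries (columns). Sdha, Uqcrc1, Ndufv1 and Ndufs8 are red in all 3 healthy brain libraries, while many short members such as Ndufa1 are blue in 100 µg replicate 3, the 200 µg libraries and healthy brain replicate 3.

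Untreated tumors were first set against healthy brain. Of 83 members tested, 10 were higher and 8 lower in untreated tumors at a limma adjusted p under 0.05. This is 21.7% of the members, a smaller share than the 61.6% of all 13892 genes tested that were called (33.8% higher and 27.8% lower). The median log2 fold change of the members was 0.10, against 0.16 for all genes. Values of the 2 tissues did not overlap for 12 members that were higher and 10 that were lower, where 38.3% of all genes were higher and 31.2% lower without overlap. Complex I had 4 members higher and 6 lower of 38, complex II had 0 and 1 of 4, complex III 3 and 1 of 9, complex IV 1 and 0 of 15, and complex V 2 and 0 of 17.

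The direction of the whole set depended on scaling and on library. Median-of-ratios scaling moved the median of all genes to -0.06 and that of members to -0.15, and gave 6 members higher and 16 lower. Quantile normalization gave 7 and 13, removing a trend on exonic length 6 and 17, and removing a trend on mRNA length 4 and 19. Of all genes, median-of-ratios scaling called 3913 higher and 4486 lower of 13901, and quantile normalization 4578 and 3867 of 13892. Removing the exonic length trend called 4883 and 3814 of 13892 genes, and removing the mRNA length trend 4544 and 3768 of 12842. Without healthy brain replicate 3 the split of members was 8 and 14, and counts over all genes in that fit are not given. By mRNA length, the median log2 fold change of members was 0.84 under 600 bases (6 higher, 0 lower of 30), -0.09 from 600 to under 1000 bases (1 higher, 4 lower of 26) and -0.14 at 1000 bases or more (3 higher, 4 lower of 27). All genes had medians of 0.92, 0.46 and 0.12 in these length classes. Of all genes, 81 were called higher and 21 lower of 220 under 600 bases. From 600 to under 1000 bases these were 310 and 143 of 839, and at 1000 bases or more 4009 and 3532 of 11783. Of the 30 members under 600 bases, 7 had negative log2 fold changes, and relative to untreated tumors their median was -0.34, -0.14 and -1.40 in healthy brain replicates 1, 2 and 3. The members described at most length are those whose call held under all 20 alternatives run. Sdha, Ndufv1, Ndufs8 and Uqcrc1 were lower, and Ndufs1, Uqcrq and Ndufa4l2 higher, in untreated tumors under all 20.

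**Figure D2:**
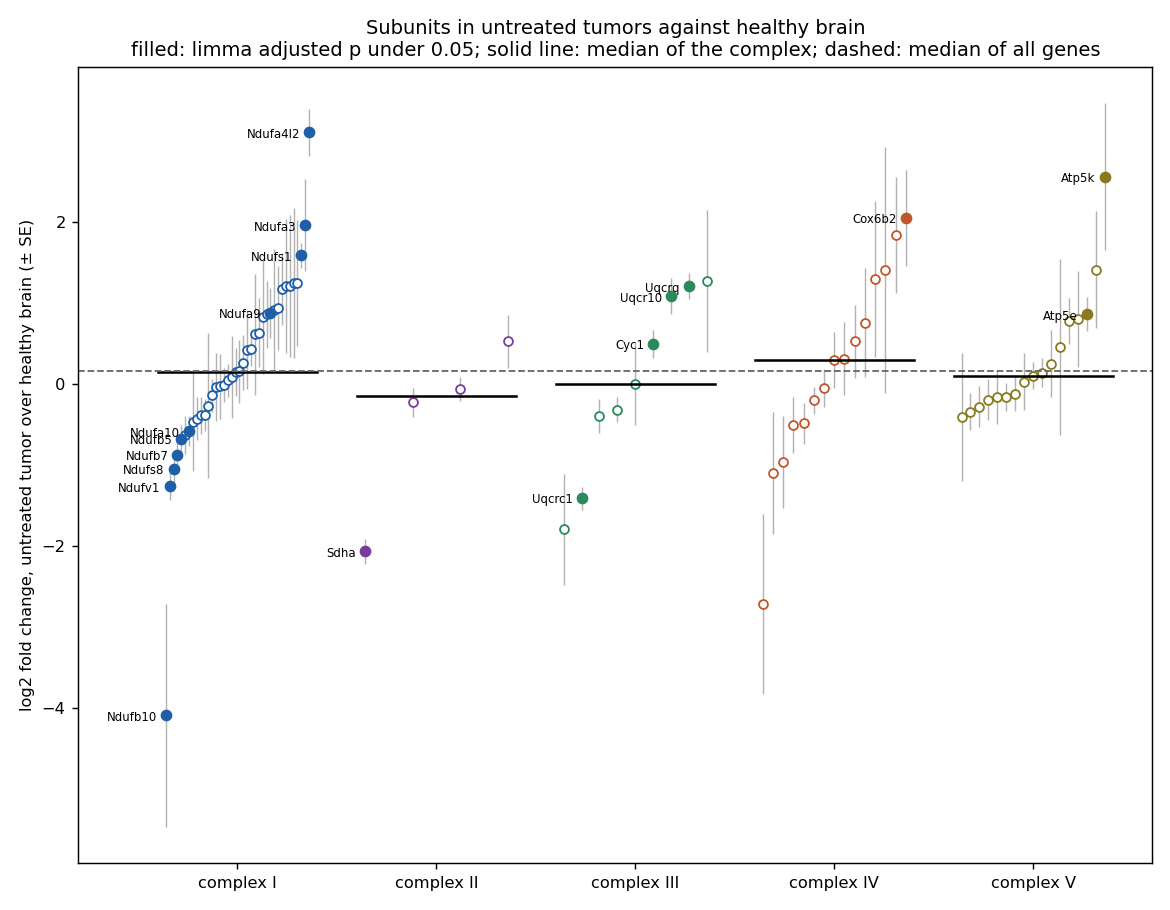
Log2 fold change (± SE) of each tested member in untreated tumors over healthy brain, sorted within complexes I to V; filled points have a limma adjusted p under 0.05, solid lines are medians of a complex and the dashed line is the median of all genes. Sdha stands alone at -2.07 in complex II, and complex I has called members on both sides of 0.

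Complex II, succinate dehydrogenase, is the one complex encoded wholly by nuclear genes and links the chain to the citric acid cycle. Sdha, its flavoprotein that oxidizes succinate, lies on chromosome 13 from 74322254 to 74350280 on the minus strand of mm10. Sdha had 15.8, 14.6 and 14.9 FPKM in untreated tumors, against 67.1, 74.6 and 58.0 FPKM in healthy brain. Every tumor library was below every brain library, also under treatment, where Sdha ranged from 10.5 to 15.9 FPKM. The log2 fold change of untreated tumor over healthy brain was -2.07 (SE 0.15, limma adjusted p = 6.96e-05), and it ranged from -2.45 to -1.98 over the alternatives.

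Its partners did not follow it past the test. Sdhb, the iron-sulfur subunit, had 37.0, 37.2 and 36.2 FPKM in untreated tumors and 43.0, 39.4 and 33.8 FPKM in healthy brain, a log2 fold change of -0.07 (SE 0.15, limma adjusted p = 0.718). Sdhc, a membrane anchor, averaged 17.8 FPKM in untreated tumors and 20.9 FPKM in healthy brain (log2 fold change -0.23, limma adjusted p = 0.314). Sdhd, the other anchor, averaged 38.4 and 24.6 FPKM in the same order (log2 fold change 0.52, limma adjusted p = 0.210), and in all 15 libraries part or all of its value came from transcripts joined to a neighbour. Neither Sdhb, Sdhc nor Sdhd was called under any alternative. The ratio of Sdha to Sdhb within a library, which no scaling factor changes, was 0.426, 0.392 and 0.411 in untreated tumors, against 1.56, 1.89 and 1.72 in healthy brain. The ratio did not overlap between the tissues. This ratio and those of Ndufv1 to Ndufv2 and Uqcrc1 to Uqcrc2 given further on were chosen after the values were seen, so they are given with no test. In treated tumors it lay between 0.294 and 0.492, although 3 of those libraries (50 µg replicate 2, 100 µg replicate 3 and 200 µg replicate 1) held Sdha transcripts joined to a neighbour.

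Promoter sequences were available in RefSeq windows on GRCm38.p6 (the build named mm10), from 250 bases before to 50 after a start, for 69 of the 86 members, in 73 windows. The stretches printed here belong to the complex II genes with a window and to the members that fell in untreated tumors under all 20 alternatives, and each ends at the first annotated exon or RefSeq start. Capitals mark matches, on either strand, to GCGC, any base and TGCGC in a row for NRF1, to CCGGAAG for GABP and other ETS factors, AAGATGGC for YY1, ACGTGC for hypoxia-inducible factors and GGGCGG for SP1. No motif contains another, but a CCGGAAG match can run into an AAGATGGC match.
Sdha chr13:74350281-74350308, minus strand: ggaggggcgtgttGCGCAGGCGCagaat
Sdhb chr4:140961083-140961202, plus strand: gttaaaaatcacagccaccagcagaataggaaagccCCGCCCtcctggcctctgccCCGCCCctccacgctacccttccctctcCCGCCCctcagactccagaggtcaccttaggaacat
Sdhd chr9:50603850-50603909, minus strand: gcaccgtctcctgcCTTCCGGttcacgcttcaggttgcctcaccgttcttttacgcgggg
Uqcrc1 chr9:108936513-108936632, plus strand: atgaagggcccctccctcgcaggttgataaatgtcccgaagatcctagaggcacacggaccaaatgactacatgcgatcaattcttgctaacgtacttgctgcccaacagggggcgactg
Ndufv1 chr19:4012807-4012926, minus strand: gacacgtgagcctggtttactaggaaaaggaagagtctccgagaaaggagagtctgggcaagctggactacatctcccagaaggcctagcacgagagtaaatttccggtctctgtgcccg
Ndufs8 chr19:3912775-3912894, minus strand: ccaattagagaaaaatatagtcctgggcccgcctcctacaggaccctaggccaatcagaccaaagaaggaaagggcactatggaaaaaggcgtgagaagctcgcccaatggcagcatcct
The Sdha stretch holds an NRF1 match, the Sdhb stretch SP1 matches and the Sdhd stretch an ETS match, while the stretches of Uqcrc1, Ndufv1 and Ndufs8 hold no match to these letters. These stretches are only parts of the windows. Outside them, the windows of Sdha, Sdhd and Uqcrc1 hold NRF1 matches, those of Sdhb and Ndufs8 an ETS match, and that of Sdhd also an SP1 match. The whole Ndufv1 window holds no match. NRF1 and the ETS factor GABP are known activators of nuclear respiratory genes. Over whole windows, the NRF1 letters occurred in 24.7% of member windows and 4.603% of all 32851 windows, the ETS letters in 21.9% and 8.86%, and the YY1 letters in 13.7% and 2.75%. The SP1 letters occurred in 39.7% of member windows and 35.7% of all windows, and the hypoxia-inducible factor letters in 5.48% and 5.91%. These are matches of letters, and binding was not measured.

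Complex I oxidizes NADH. Its nuclear core subunits carry the flavin and the iron-sulfur clusters, and among them Ndufv1 and Ndufs8 fell and Ndufs1 rose in untreated tumors against healthy brain. Ndufv1, which binds NADH and the flavin, had 24.2, 22.8 and 19.7 FPKM in untreated tumors, against 61.5, 57.4 and 46.1 FPKM in healthy brain (log2 fold change -1.26, SE 0.17, limma adjusted p = 0.000978). Ndufs8, an iron-sulfur subunit between the flavin and the quinone site, had 28.9, 19.0 and 18.8 FPKM in untreated tumors, against 50.7, 39.6 and 48.6 FPKM in healthy brain (log2 fold change -1.05, SE 0.22, limma adjusted p = 0.00637). Both fell in untreated tumors without overlap between the tissues. They lie near each other on chromosome 19, Ndufs8 from 3908863 to 3912774 and Ndufv1 from 4007384 to 4012806, both on the minus strand.

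Other core subunits varied in degree. Ndufs7, which holds the last iron-sulfur cluster before ubiquinone, had 32.9, 30.4 and 26.8 FPKM in untreated tumors and 64.7, 41.9 and 37.9 FPKM in healthy brain. Those values did not overlap, and the log2 fold change of -0.63 missed the threshold (limma adjusted p = 0.0553). Log2 fold changes were -0.38 for Ndufv2 (limma adjusted p = 0.144) and -0.04 for Ndufs3 (limma adjusted p = 0.944), neither of them called. The ratio of Ndufv1 to its flavoprotein partner Ndufv2 was 0.552, 0.699 and 0.725 in untreated tumors, against 1.36, 1.33 and 1.02 in healthy brain. Ndufs1 went the other way. It is the large iron-sulfur subunit on chromosome 1 from 63143596 to 63176833. Ndufs1 had 41.3, 37.8 and 33.7 FPKM in untreated tumors, against 10.99, 11.51 and 13.1 FPKM in healthy brain (log2 fold change 1.58, SE 0.15, limma adjusted p = 0.000211). It rose in untreated tumors with no overlap. In treated tumors Ndufs1 was less steady, between 7.80 FPKM in 50 µg replicate 2 and 94.5 FPKM in 50 µg replicate 3.

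Among the 31 accessory subunits of complex I, 3 were higher and 4 lower, with a median log2 fold change of 0.42. Ndufa4l2, a paralog of Ndufa4 known in other tissues as a gene induced by low oxygen, had the largest rise of any member. It had 34.6, 18.2 and 32.2 FPKM in untreated tumors, against 1.88, 3.11 and 2.06 FPKM in healthy brain (log2 fold change 3.10, SE 0.29, limma adjusted p = 0.000182). Its levels under treatment were scattered: 0, 27.7 and 2.38 FPKM at 50 µg, 39.3, 0 and 42.5 FPKM at 100 µg, and 38.4, 44.7 and 10.4 FPKM at 200 µg. Ndufa4 itself, which biochemical work places in complex IV, averaged 138 FPKM in untreated tumors and 83.4 FPKM in healthy brain with 31.3 FPKM in brain replicate 3, and was not called (log2 fold change 0.93, limma adjusted p = 0.163). Among the other called accessory members are Ndufb5, lower, and Ndufa3, higher, both with less certain values. Their calls held in 18 and 12 of the 19 alternatives that tested them. Ndufb7 had a log2 fold change of -0.87 (limma adjusted p = 0.00604), a call that held in all 19 alternatives that tested it. Its whole value came from transcripts joined to a neighbour in all 3 untreated tumors and in healthy brain replicate 3, but not in the other 2 healthy brain libraries, and the part of this in its fall was not tested. Ndufa10 had -0.58 (limma adjusted p = 0.0317), a call that held in 14 of 20 alternatives. Ndufa9 had 0.87 (limma adjusted p = 0.0492), a call that held in 7 of 20 alternatives. Ndufb10 had 3.89, 55.9 and 0 FPKM in untreated tumors, against 115, 112 and 104 FPKM in healthy brain (log2 fold change -4.09, SE 1.37, limma adjusted p = 0.0398). Ndufb10 swung from 0 to 716 FPKM among treated tumors, and in 4 of those libraries its whole value came from transcripts joined to a neighbour. Its call held in 11 of 20 alternatives.

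**Figure D3:**
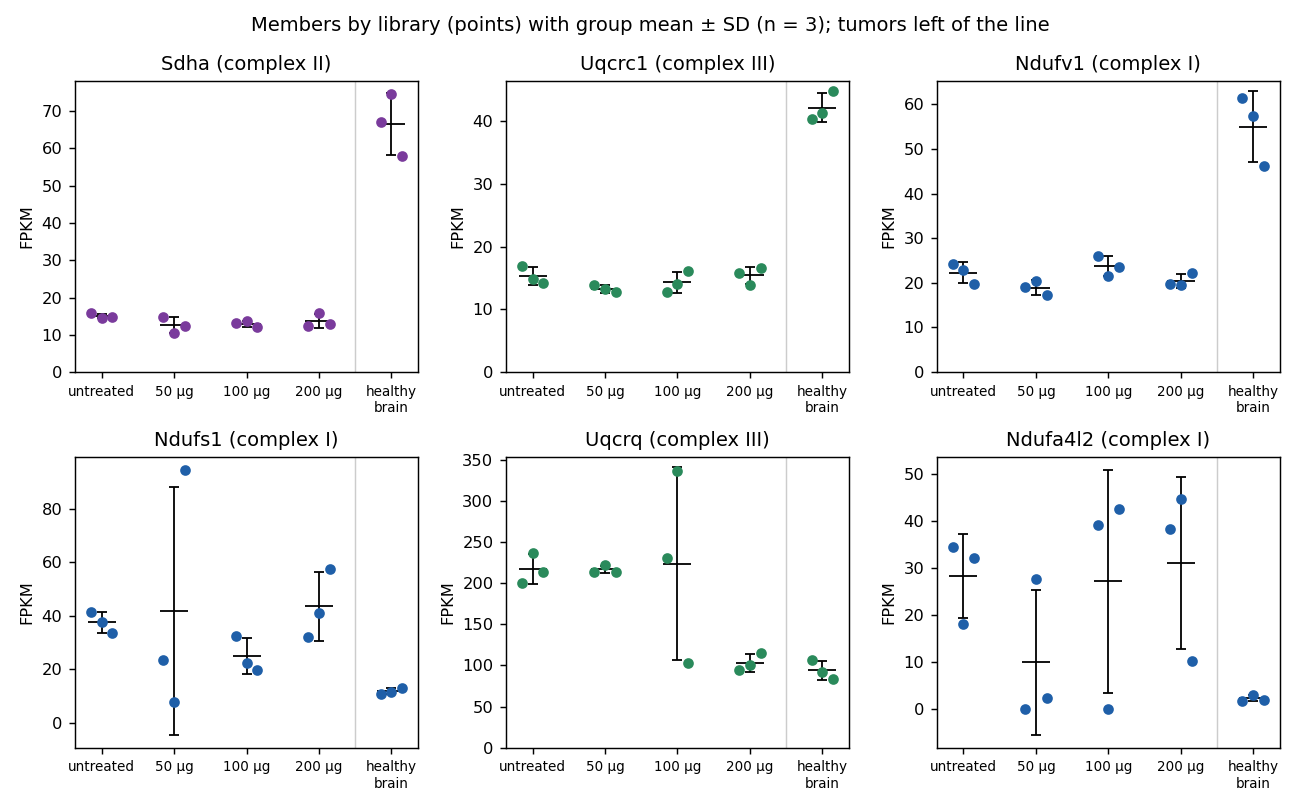
FPKM of 6 members in each library (points), with the group mean and SD (n = 3 each), for untreated tumors, tumors at 50, 100 and 200 µg per dose and, right of the line, healthy brain. Sdha, Uqcrc1 and Ndufv1 lie below healthy brain in all 12 tumor libraries, and Ndufs1 and Ndufa4l2 scatter widely under treatment. Uqcrq lies at the level of healthy brain at 200 µg and in 100 µg replicate 3.

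Complex III showed opposite changes within 1 enzyme. Uqcrc1, a core protein on the matrix side, lies on chromosome 9 from 108936633 to 108949623. Uqcrc1 had 16.9, 14.9 and 14.1 FPKM in untreated tumors, against 40.4, 41.3 and 44.8 FPKM in healthy brain (log2 fold change -1.41, SE 0.14, limma adjusted p = 0.000253). Its partner Uqcrc2 averaged 38.4 FPKM in untreated tumors and 50.4 FPKM in healthy brain and was not called (log2 fold change -0.39, limma adjusted p = 0.149). The ratio of Uqcrc1 to Uqcrc2 was 0.355, 0.415 and 0.443 in untreated tumors, against 0.966, 0.757 and 0.818 in healthy brain. Uqcrc2 overlaps another gene, so its values are less certain. Uqcrfs1, the Rieske iron-sulfur protein, was not called (log2 fold change -0.32, limma adjusted p = 0.114), and Cyc1, cytochrome c1, was higher by 0.49 (limma adjusted p = 0.0436), a call kept in 7 of 20 alternatives.

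The 5 accessory subunits of complex III all have mRNAs under 600 bases and differed in direction, with 2 called, both higher. Uqcrq, a small membrane subunit, had 201, 237 and 214 FPKM in untreated tumors, against 106, 91.6 and 83.8 FPKM in healthy brain (log2 fold change 1.20, SE 0.16, limma adjusted p = 0.000812). Its mRNA has a median length of 504 bases, and its log2 fold change ranged from 0.65 to 1.44 over the alternatives, the lowest with the mRNA length trend removed, where it was still called. Uqcr10, another small subunit, averaged 207 FPKM in untreated tumors and 98.8 FPKM in healthy brain (log2 fold change 1.08, limma adjusted p = 0.00576), and with the mRNA length trend removed it was not called. Uqcrh, the hinge protein that binds cytochrome c1, had 10.8, 64.6 and 13.6 FPKM in untreated tumors and 120.8, 65.1 and 57.8 FPKM in healthy brain (log2 fold change -1.80, limma adjusted p = 0.0621), and its whole value in untreated replicates 1 and 3 came from transcripts joined to a neighbour. Uqcrb had a log2 fold change of 1.26 (limma adjusted p = 0.252) and Uqcr11 of -0.00 (limma adjusted p = 0.997). Uqcrh, Uqcrb and Uqcr11 were named after their values were seen.

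Complex IV, cytochrome c oxidase, uses tissue isoforms for several subunits. Its 1 called member was Cox6b2, the testis-associated form of Cox6b1, with 11.1, 9.67 and 9.41 FPKM in untreated tumors, against 2.99, 0 and 3.78 FPKM in healthy brain (log2 fold change 2.05, SE 0.59, limma adjusted p = 0.0230), a call that held in 13 of 20 alternatives. Cox6b1, the widespread form, averaged 215 FPKM in untreated tumors and 227 FPKM in healthy brain. Cox4i1, the main Cox4 form, had 173, 115 and 67.7 FPKM in untreated tumors, and 415, 433 and 73.6 FPKM in healthy brain, where replicate 3 was far below the other 2 (log2 fold change -1.09, limma adjusted p = 0.248). Cox6a1, the non-muscle form, had 639, 605 and 675 FPKM in untreated tumors, against 1123, 1030 and 619 FPKM in healthy brain (log2 fold change -0.49, limma adjusted p = 0.139). Cox8b, known from muscle and brown fat, had a value of 0 throughout the tumors, against 20.7, 0 and 12.1 FPKM in healthy brain. Cox7a2, the liver form, averaged 123 FPKM in untreated tumors and 44.8 FPKM in healthy brain (log2 fold change 1.83, limma adjusted p = 0.0659), and Cox7a1, its muscle form, was at 0 in 10 of 15 libraries.

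The catalytic subunits of ATP synthase were not called. Atp5a1 averaged 171 ± 19.4 FPKM in untreated tumors and 159 ± 18.5 FPKM in healthy brain (SD, n = 3 each; log2 fold change 0.10, limma adjusted p = 0.619). Atp5b averaged 259 ± 46.0 and 233 ± 20.99 FPKM in the same order (log2 fold change 0.14, SE 0.18, limma adjusted p = 0.536). The 2 called members were Atp5e, the small epsilon subunit of the rotor, at 0.86 (limma adjusted p = 0.0124) and Atp5k, subunit e of the membrane part, at 2.55 (limma adjusted p = 0.0484). The Atp5e call held in 15 of 20 alternatives and the Atp5k call in 4 of 20. Both have mRNAs under 600 bases, and Atp5k has a near-identical copy and was at 14.72 and 11.7 FPKM in 2 healthy brain libraries but 134 FPKM in the other.

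Genes around the chain were read from lists chosen with earlier results of these data known. Of 46 assembly factors tested, 3 were higher and 8 lower in untreated tumors than in healthy brain. Over all genes tested in this comparison, 33.8% were higher and 27.8% lower, against which the counts of each list here are to be read. Surf1 (1.26) and Cox15 (1.09), both needed to build complex IV, were among the risers, and Sdhaf3 (log2 fold change -1.23), which matures Sdhb, was among those that fell. Sco2, a copper chaperone for complex IV that overlaps another gene, was listed at 0 in all 3 untreated tumors, against 12.9, 5.17 and 10.7 FPKM in healthy brain. In treated tumors Sco2 swung between 0 and 51.7 FPKM, so its 0 values are uncertain. Of 13 citric acid cycle genes 3 were higher and 4 lower, with Suclg2 at 1.12 and Idh3g at 1.00, and Sucla2 at -1.65 and Idh3a at -1.16. Of 13 regulators of mitochondrial biogenesis 5 were higher and 2 lower. Ppargc1a, the coactivator PGC-1alpha, was listed at 0 in all 3 untreated tumors, against 4.47, 4.77 and 6.29 FPKM in healthy brain, while its relative Pprc1 was higher by 2.41 and the mitochondrial helicase Twnk by 1.87. Nrf1, whose product binds the NRF1 letters above, was higher by 0.74 (limma adjusted p = 0.00498).

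Of 6 genes for electron carriers and the ATP synthase inhibitor, 3 were higher in untreated tumors. Cycs, somatic cytochrome c, had 65.0, 56.9 and 61.4 FPKM in untreated tumors, against 25.3, 39.7 and 34.5 FPKM in healthy brain (log2 fold change 0.88, limma adjusted p = 0.00879). Cyct, the cytochrome c known from testis, had 53.4, 51.4 and 45.6 FPKM in untreated tumors and was listed at 0 in all 3 healthy brain libraries. Cyct was also present in every treated tumor, between 39.9 and 85.8 FPKM, and copies of Cyct were not searched for. The 13 subunits encoded by mitochondrial DNA were listed at 0 or at most 5.70 FPKM in every library, and 3 of them passed the filter on low values with none called between tumor and brain. The nuclear and mitochondrial subunits can therefore not be compared here.

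The antibody doses were then set against untreated tumors within 1 fit of the 12 tumor libraries, so the 3 doses share their controls. At 50 µg, 0 of 82 members were called by limma, where 0.00804% of 12440 genes were, and 4 members and 484 genes (3.89%) had an unadjusted p under 0.05. Values did not overlap for 0 members that were higher and 3 that were lower, where 3.42% and 6.07% of all genes did so. Ndufb3 (log2 fold change 0.64), Ndufs3 (0.87) and Cox7c (-1.14) had the smallest p, each with a limma adjusted p of 0.901. At 100 µg, 0 members were called, where 0.0643% of genes were, and 4 members and 1155 genes (9.28%) had an unadjusted p under 0.05. Values did not overlap for 1 member that was higher and 7 that were lower, where 7.44% of all genes were higher and 7.4% lower without overlap. The smallest p belonged to Ndufa5 (log2 fold change -1.13, limma adjusted p = 0.268), Cox6a2 (1.68, limma adjusted p = 0.315) and Ndufs6 (-1.01, limma adjusted p = 0.421). Cox6a2, the heart and muscle isoform, overlaps another gene. It had 26.3, 45.2 and 8.58 FPKM at 100 µg, against 5.79, 7.38 and 5.51 FPKM in untreated tumors. In healthy brain it had 22.4, 20.3 and 4.48 FPKM. The skeletal muscle markers Acta1, Ckm and Myh4 summed to 0 at 100 µg and to 0 to 1.16 FPKM in untreated tumors. A part of muscle tissue in the Cox6a2 values was not tested. None of the 7 members that separated tumor from brain under all 20 alternatives was called at any dose. Sdha had a log2 fold change of -0.26, -0.20 and -0.13 at 50, 100 and 200 µg over untreated tumor, and Uqcrc1 had -0.19, -0.09 and 0.01. Uqcrq came nearest, with 94.4, 100.2 and 115 FPKM at 200 µg, against 201, 237 and 214 FPKM in untreated tumors (log2 fold change -1.07, limma adjusted p = 0.0940). Those values did not overlap, and Uqcrq was called lower in 3 of 28 alternatives at 200 µg and in 7 of 28 for the trend over dose. At 100 µg Uqcrq had 231 and 337 FPKM in replicates 1 and 2 and 103 FPKM in replicate 3, a library with few genes in pieces like those at 200 µg.

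At 200 µg, 0 members were higher and 3 lower than in untreated tumors, where 3.57% of genes were called, 2.55% as higher and 1.02% as lower. An unadjusted p under 0.05 was reached by 19 members, where 24.4% of all genes reached it. Cox8a, the widespread form of the smallest complex IV subunit, had 108, 144 and 334 FPKM at 200 µg, against 764, 702 and 628 FPKM in untreated tumors (log2 fold change -2.00, SE 0.41, limma adjusted p = 0.0314). Ndufa1, an X-linked membrane subunit needed for assembly of complex I, had 10.004, 9.47 and 11.2 FPKM at 200 µg, against 211, 89.7 and 121 FPKM in untreated tumors (log2 fold change -3.57, SE 0.81, limma adjusted p = 0.0419). Ndufa5, an accessory subunit of the matrix arm, had 16.2, 28.2 and 26.5 FPKM at 200 µg, against 65.0, 61.7 and 45.9 FPKM in untreated tumors (log2 fold change -1.27, SE 0.30, limma adjusted p = 0.0470). All 3 genes fell at 200 µg with no overlap between the groups.

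The wider set leaned the same way. Of 82 members, 58 had negative log2 fold changes at 200 µg, with a median of -0.25 against 0.04 for all genes. Values did not overlap for 28 members that were lower, where 17.5% of all genes were lower without overlap, and for 3 that were higher, where 22.7% were. Of the 28 lower members, 25 had mRNAs under 1000 bases, a class that held 55 of the 82 tested. The 3 higher members were Uqcrc2 (log2 fold change 0.48), Sdhc (0.57) and Cox6a2 (1.12), none of them called. Uqcrc2 and Cox6a2 each overlap another gene. By complex, the medians were -0.23 in I, 0.22 in II, -0.28 in III, -0.74 in IV and -0.24 in V.

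**Figure D4:**
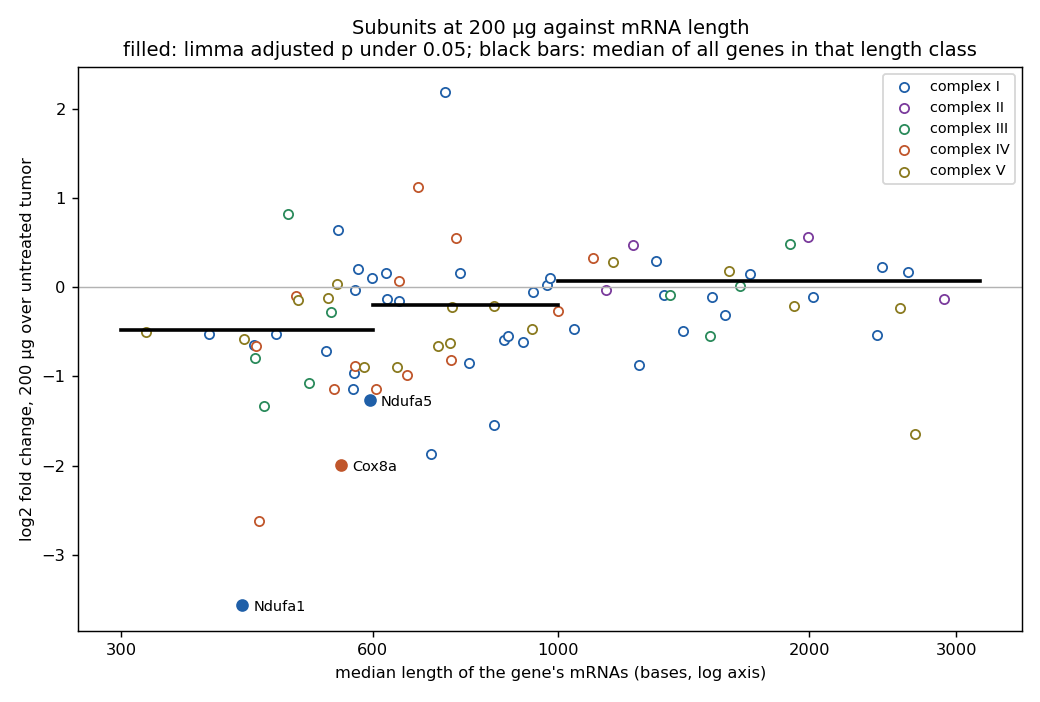
Log2 fold change at 200 µg over untreated tumor of the 82 tested members (vertical axis) against the median length of their mRNAs in bases (horizontal log axis), coloured by complex; filled points have a limma adjusted p under 0.05 and black bars are medians of all genes in each length class. The 3 called members have mRNAs under 600 bases, and the members and all genes both run lower in the shorter classes.

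The fall at 200 µg moved with mRNA length and with the libraries that stood apart. The median log2 fold change of members was -0.64 under 600 bases, -0.35 from 600 to under 1000 bases and -0.09 at 1000 bases or more, and that of all genes was -0.47, -0.20 and 0.07. Pearson's r between log2 fold change and log2 mRNA length was 0.29 over the 82 members and 0.17 over 11491 genes, which share the same libraries and are not independent replicates. Library by library, members under 600 bases had medians of -0.62, -0.52 and -0.61 in the 200 µg libraries relative to untreated tumors, but also -0.72 in 100 µg replicate 3 and -1.40 in healthy brain replicate 3. In the other 2 libraries at 100 µg the same medians were 0.05 and 0.14. Members of 1000 bases or more stayed between -0.26 and 0.16 in all 15 libraries.

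**Figure D5:**
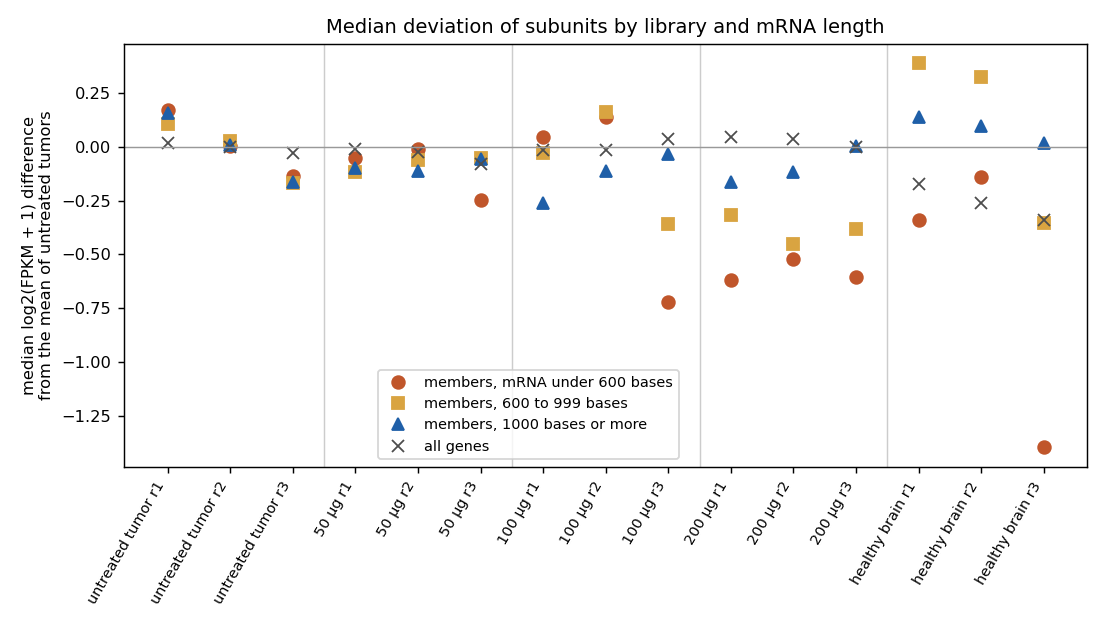
Median difference of log2(FPKM + 1) from the mean of untreated tumors (vertical axis) in each of the 15 libraries, for members with mRNAs under 600 bases, from 600 to under 1000 and of 1000 or more, and for all genes. Short members are lowest in healthy brain replicate 3, at -1.40, and lie between -0.72 and -0.52 in 100 µg replicate 3 and the 3 libraries at 200 µg.

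Ndufa1 had 8.52 FPKM in 100 µg replicate 3 and 14.6 FPKM in healthy brain replicate 3, next to 73.5 and 146 FPKM in the other 100 µg libraries and 120 and 102 FPKM in the other healthy brain libraries. These 2 libraries, like those at 200 µg, had the smallest shares of genes in pieces within their tissue. With a term for 100 µg replicate 3 and the 200 µg libraries in the fit, 0 members were called at 200 µg, and the log2 fold change of Ndufa1 was -0.11, of Cox8a -1.20 and of Ndufa5 -1.23. Except through 100 µg replicate 3, the dose of 200 µg and this feature of the libraries cannot be told apart. The agent tag of that library names 200 µg, and under that tag dose and feature cannot be told apart at all. Leaving out any untreated library, or 200 µg replicate 1 or 2, also left 0 members called. Leaving out 200 µg replicate 3 or 50 µg replicate 1 or 2 gave 1, 50 µg replicate 3 gave 5 and 100 µg replicate 3 gave 9, all lower. Counts over all genes with the added term or with a library left out are not given. Whether these shifts are particular to the members was therefore not tested.

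A linear trend over 0, 50, 100 and 200 µg called 0 members higher and 6 lower, where 9.02% of genes were called, 6.08% as higher and 2.94% as lower. Slopes per 100 µg were -1.04 for Cox8a (limma adjusted p = 0.00965), -1.78 for Ndufa1 (0.0141), -0.72 for Ndufa5 (0.0265), -0.77 for Atp5g1 (0.0298), -0.62 for Cox6c (0.0347) and -0.31 for Ndufa8 (0.04003). Atp5g1, 1 of several genes for the c-ring of ATP synthase, had 23.9, 26.5 and 7.37 FPKM at 50 µg, 20.7, 17.3 and 10.9 FPKM at 100 µg and 10.7, 6.33 and 8.05 FPKM at 200 µg, against 31.1, 21.2 and 32.3 FPKM in untreated tumors, and it has a near-identical copy. Ndufa8, an accessory subunit of complex I, had 72.7, 83.4 and 70.7 FPKM at 200 µg, against 134, 117 and 95.04 FPKM in untreated tumors. It had 111, 108 and 111 FPKM at 50 µg and 114, 110 and 78.8 FPKM at 100 µg, the last in replicate 3. With the term for libraries with few pieces the trend called 0 members. Among the lists around the chain, the assembly factor Nubpl, which delivers iron-sulfur clusters to complex I, was higher at 200 µg (log2 fold change 0.75, limma adjusted p = 0.0443), and it was the 1 call at 200 µg in these lists. The trend over dose called 3 genes higher and 2 lower in these lists, where 6.08% and 2.94% of all genes were. Of 45 assembly factors tested it called 2 higher and 1 lower, of 11 regulators 1 higher, and of 2 mitochondrially encoded subunits 1 lower. It called 0 of 6 carrier and inhibitor genes and 0 of 13 citric acid cycle genes. Nubpl, Taco1, which activates translation of a mitochondrial complex IV mRNA, and Tfam, which packs mitochondrial DNA, had slopes of 0.36, 0.38 and 0.35 per 100 µg. Coa7, an assembly factor of complex IV, had a slope of -0.33 (limma adjusted p = 0.0246). The mitochondrial gene mt-Cytb had a slope of -0.69 (limma adjusted p = 0.0336) and was at 2.59 FPKM or less in all 12 tumor libraries. In 100 µg replicate 3, Nubpl had 2.46 FPKM, Taco1 8.53 and Tfam 16.5. Replicates 1 and 2 at 100 µg had 1.57 and 1.61, 8.16 and 6.46, and 9.47 and 12.5 FPKM in that order. Coa7 had 2.65 FPKM in 100 µg replicate 3 against 3.03 and 3.56, and mt-Cytb 0 against 1.89 and 2.10. The fit with the term for few pieces is given here for members only.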

How the data were processed

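Libraries were made with the NEBNext Ultra RNA kit from total RNA, per the labels' protocols. STAR and Cufflinks and the build mm10 are named, with no versions, in the submitters' processing notes. The authors deposited 1 Cufflinks transcript file per library, in which each assembled transcript carries an FPKM value and a coverage, per the file headers. Column 9 of these files holds several fields in 1 text, from which the FPKM was read.

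Transcripts were assigned to GENCODE vM21 genes by a shared intron, or by at least 50% of their bases on exons, and single-exon transcripts under 200 bp were set aside. A gene's value is the sum of FPKM times the share of its exonic length covered. Tests used limma 3.58.1 (R 4.3.3) on log2(FPKM + 1) over all genes with a mean of at least 1 FPKM in the libraries of a fit, two-sided, with Benjamini-Hochberg adjustment over all genes and calls under 0.05. Fold changes are on that log2 scale and understate changes of low genes. The fits were run on simulated data with independent noise in each gene. Those data held no shift by library or mRNA length, so the run cannot bear on such shifts. Near-identical copies were searched with blastn 2.17.0 (at least 95% identity over 50% of the length). A gene counts as in pieces when it holds 2 or more assembled fragments that do not overlap.

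Groups came from titles. Untreated tumor was tested against healthy brain in 6 libraries, and doses and the trend in 12. Members and gene lists were chosen with earlier results of these data known. Members named are the highest and lowest of a complex, the largest called changes, the smallest p at each dose, isoform pairs, complex II, core subunits and those below the filter; 1 member that the rule names is counted but not reported here. Alternatives varied the gene value, scaling, pseudocount, filter, length, variance model, grouping, replicate block and libraries; exons of coding transcripts and the mRNA length trend were added after seeing the data.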

Additional observations from a re-analysis of the deposited data

How the results depend on the processing

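No result changed sign past its threshold under any alternative run. Of the counts outside leave-one-out, 65 stayed within 1.5 times the main count, 3 were higher and 10 lower. The 65 include the counts at 50 and 100 µg, which were 0 in the main fit and in every alternative. Untreated tumor against healthy brain called 18 members, but 9 on the plain FPKM sum and 11 without the untreated library whose agent tag disagrees with its title. At 200 µg, 3 were called, but 0 on the plain sum, 0 with the term for libraries with few pieces, 1 with a pseudocount of 0.1, 1 with no filter, 10 without the libraries whose tag disagrees or is missing and 6 when grouped by tag. The trend called 6, but 3 on the plain sum, 3 with the mRNA length trend removed, 0 with the term for few pieces and 15 when grouped by tag. Of all genes, the plain sum called 3139 higher and 3089 lower of 15158 against brain. At 200 µg it called 39 and 17 of 13451, where the main fit called 317 and 127 of 12440. For the trend it called 147 and 134 of 13451, and removing the mRNA length trend 754 and 350 of 11491. Counts over all genes in the other alternatives named here are not given. At 50 and 100 µg every alternative called 0 members. Where a cause is not given by the alternative's construction, it was not tested. The replicate block left 18 members called against brain and 0 at 50 and 100 µg, gave 0 at 200 µg and 6 for the trend. Same-numbered libraries correlated between -0.07 and 0.25 (median 0.004), and other pairs between -0.21 and 0.18 (median 0.002). These values show no clear pairing by number, but cannot establish that there is none. Leaving out 1 library gave 11 to 22 members against brain, 0 to 0 at 50 µg and at 100 µg, 0 to 9 at 200 µg and 1 to 12 for the trend. Against brain the fewest came without untreated replicate 3. The trend called 1 without 200 µg replicate 1 or 2, 3 without untreated replicate 1 or 2 and 12 without 50 µg replicate 3. Read totals are not given in the sources used here, so counting error could not be computed.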
